A study of Mus musculus with 8 samples.

Results

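Interleukins and their receptors were followed in CD31-positive cells of mouse embryos with a mutant Gata2 enhancer. CD31, or PECAM-1, sits on endothelium, on platelets and on many white blood cells. Members were taken by name, as every gene on the array whose name begins with Il and a digit, which gave 83 of the 34844 gene names on the array. Of these, 76 were measured, among 31343 gene names tested, in that 4 or more of the 8 arrays had a probe of the gene well above background. They comprise 35 ligands and antagonists, 40 receptor chains and Il4i1, an enzyme that breaks down amino acids. The 7 that were not measured are the ligands Il10, Il12a, Il17a, Il1f6, Il1f8 and Il21 and the receptor chain Il23r. Il28b and Il28ra are the array's names for genes now called Ifnl3 and Ifnlr1.

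The mutant group was 4 Gata2+9.5-/- embryos, which carry the mutation of the +9.5 enhancer on both alleles, and the other group was 4 wild type littermates. All were E12.5 embryos on the C57Bl/6J background from matings of heterozygous parents, in 2 litters of 2 mutant and 2 wild type embryos each. Each array held the RNA of 1 embryo's CD31-enriched cells, taken with magnetic beads from the body without liver and brain. The +9.5 enhancer is intronic, within Gata2, whose protein is a transcription factor of blood stem and progenitor cells, mast cells and endothelium. The enhancer was altered in every cell of the embryo, so the design does not separate endothelial from blood cells. Litter 1 gave samples 1 and 2 of both genotypes and litter 2 samples 3 and 4, and the arrays of a litter shared a slide and a scan.

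Interleukins are small secreted proteins by which blood, stromal and endothelial cells signal to each other. Most bind a private receptor chain that pairs with a chain shared by a family, such as the common gamma chain, the common beta chain or gp130, and signal through JAK kinases and STAT factors. Members of the IL-1 and IL-17 families use other adaptors and lead to NF-kappaB. In embryonic tissue, mast cells, eosinophils, macrophages and their progenitors are among the cells known to make or to read these signals.

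Levels are log2 signal relative to the 75th percentile of the same array, so they compare arrays for 1 probe and not genes with each other. Non-control spots were well above background in 74.9% to 92.0% of cases per array. Gata2 itself, the check of the genotype, was at -1.22, -0.15, -1.27 and -1.06 on the mutant arrays and at 2.00, 1.69, 0.90 and 1.43 on the wild type arrays. The difference was -2.43 ± 0.38 (log2, SE, n = 4 each, limma's adjusted p = 0.0511), and the groups did not overlap. Over all features 29 were lower in mutants at an adjusted p under 0.05 (0.0925%) and 0 were higher, by limma with Benjamini-Hochberg adjustment, while 141 were higher (0.45%) at limma's unadjusted threshold of 0.05. The arrays of mutant 4, wild type 2 and wild type 3 had a narrower spread of signal than the other arrays (interquartile range 2.93 to 3.39, against 3.64 to 4.62). With these 3 arrays left out, 0 features passed the adjusted threshold.

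The members that differed most between the genotypes were lower in mutants, among them Il6, the type 2 ligands Il13 and Il4 and the IL-33 receptor chain Il1rl1. Il6 passed the adjusted threshold, 1 of 76 members against the 0.0925% of all features that were lower. At limma's unadjusted p under 0.05, 9 members were lower, which is 11.8% of members against 3.18% of all features, and 0 members were higher, against 0.45%. In 6 members every mutant array lay below every wild type array, 7.89% against 0.629% of all features, and in 0 members did the reverse hold, against 0.51%. These 6 are the ligands Il6, Il13 and Il4 and the receptor chains Il1rl1, Il1r2 and Il7r. Il7r and Il13 met the filter through their 4 wild type arrays alone, being well above background on 0 and 1 mutant arrays. Their lack of overlap, and their place in the 11.8% and the 7.89%, are therefore given as a description. The other 3 of the 9 are Il1a, Il3 and Il5ra. In RNA of a mixed cell sample, fewer cells of a type and less RNA per cell cannot be told apart.

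**Figure D1:**
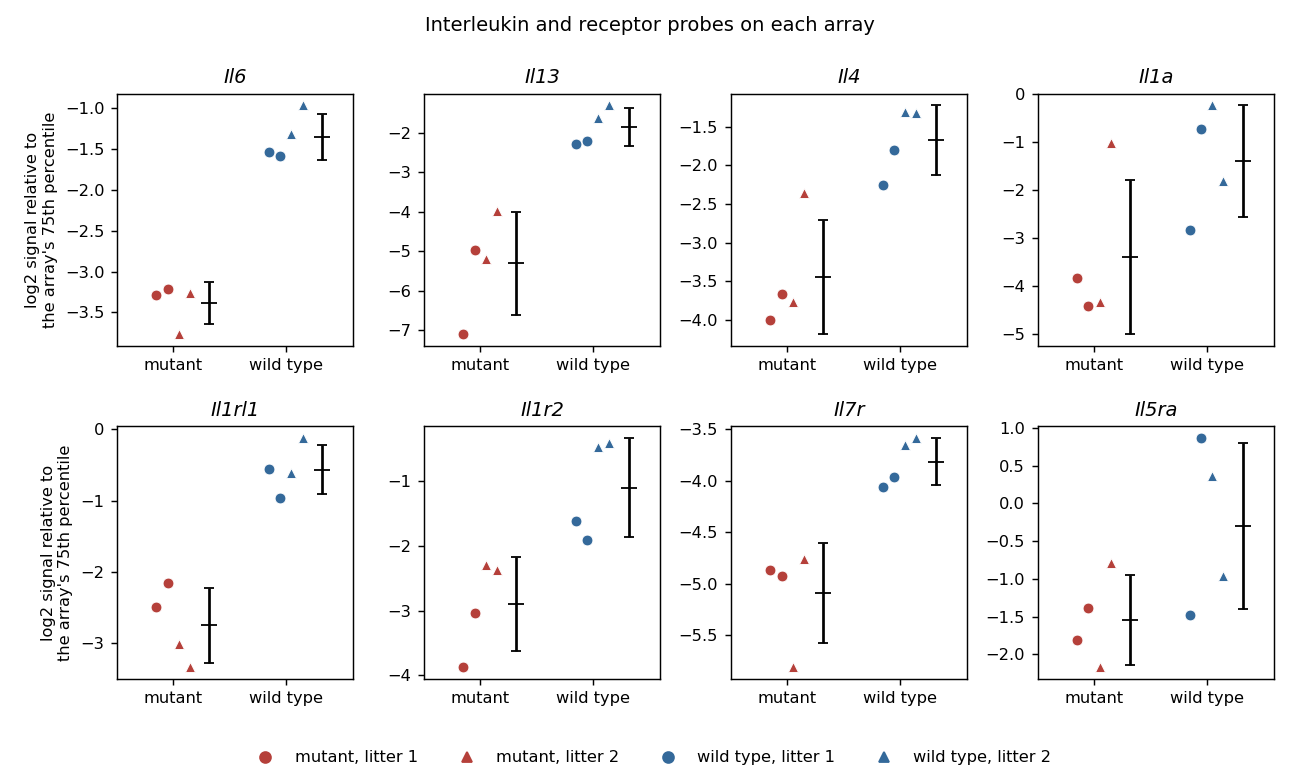
Log2 signal relative to the array's 75th percentile (vertical axes) for 8 members on each of 4 mutant and 4 wild type arrays. Circles are litter 1 and triangles litter 2, and the bar beside each group is its mean ± SD. In Il6, Il13, Il4, Il1rl1, Il1r2 and Il7r the groups are apart, while Il1a and Il5ra overlap because of mutant 4 or wild type 1.

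The sequences before each annotated start of the 6 members without overlap are shown because Gata2 binds DNA at GATA motifs. They are the 250 bases upstream of the annotated start, from RefSeq on GRCm38.p6, written 5′ to 3′ on the gene's strand. Capitals mark the motif AGATAA on either strand, where the first letter could also be T and the last letter could also be G. Overlapping matches were counted separately.

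Il6, chr5:30012864-30013113, plus strand: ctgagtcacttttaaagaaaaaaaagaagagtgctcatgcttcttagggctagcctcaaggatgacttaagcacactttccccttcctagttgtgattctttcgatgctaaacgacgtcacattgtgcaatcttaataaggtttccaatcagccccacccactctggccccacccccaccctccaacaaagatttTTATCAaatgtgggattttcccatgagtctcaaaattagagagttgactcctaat
Il13, chr11:53634703-53634952, minus strand: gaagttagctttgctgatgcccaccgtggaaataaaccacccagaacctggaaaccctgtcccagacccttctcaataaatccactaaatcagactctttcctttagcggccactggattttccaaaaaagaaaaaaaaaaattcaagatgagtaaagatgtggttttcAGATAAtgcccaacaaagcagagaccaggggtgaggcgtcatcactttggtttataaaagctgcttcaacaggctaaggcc
Il4, chr11:53617339-53617588, minus strand: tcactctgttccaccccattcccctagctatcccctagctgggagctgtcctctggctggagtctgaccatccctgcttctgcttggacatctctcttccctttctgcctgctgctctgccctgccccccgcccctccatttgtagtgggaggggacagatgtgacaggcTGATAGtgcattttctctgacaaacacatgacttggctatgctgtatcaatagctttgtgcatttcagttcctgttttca
Il4, other start, chr11:53618666-53618915, minus strand: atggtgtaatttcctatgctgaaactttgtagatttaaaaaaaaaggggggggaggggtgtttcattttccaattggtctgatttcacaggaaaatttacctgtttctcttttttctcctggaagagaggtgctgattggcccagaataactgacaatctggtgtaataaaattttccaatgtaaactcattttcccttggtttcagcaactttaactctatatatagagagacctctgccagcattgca
Il1rl1, chr1:40429320-40429569, plus strand: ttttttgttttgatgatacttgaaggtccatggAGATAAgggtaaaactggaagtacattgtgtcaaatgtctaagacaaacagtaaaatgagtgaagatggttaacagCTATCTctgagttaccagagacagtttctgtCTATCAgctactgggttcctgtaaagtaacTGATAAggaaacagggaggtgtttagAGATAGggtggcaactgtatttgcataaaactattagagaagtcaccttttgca
Il1rl1, other start, chr1:40439379-40439628, plus strand: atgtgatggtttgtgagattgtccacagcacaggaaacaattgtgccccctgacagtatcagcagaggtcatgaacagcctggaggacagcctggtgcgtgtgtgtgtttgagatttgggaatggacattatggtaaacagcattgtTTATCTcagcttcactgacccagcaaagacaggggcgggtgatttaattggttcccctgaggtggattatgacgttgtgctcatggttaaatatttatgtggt
Il1r2, chr1:40085843-40086092, plus strand: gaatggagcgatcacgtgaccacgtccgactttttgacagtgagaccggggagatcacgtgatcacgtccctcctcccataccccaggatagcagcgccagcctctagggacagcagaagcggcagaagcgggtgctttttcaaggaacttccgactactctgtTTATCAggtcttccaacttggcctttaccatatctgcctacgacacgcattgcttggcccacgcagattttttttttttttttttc
Il7r, chr15:9529877-9530126, minus strand: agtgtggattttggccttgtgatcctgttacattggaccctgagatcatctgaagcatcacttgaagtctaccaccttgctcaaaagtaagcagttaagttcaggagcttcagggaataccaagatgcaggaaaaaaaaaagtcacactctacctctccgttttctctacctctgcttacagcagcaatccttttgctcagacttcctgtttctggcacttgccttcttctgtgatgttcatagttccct

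Il1rl1 holds 5 matches in this window, 217, 141, 110, 80 and 54 bases before the start, and its other annotated start has 1. Il6 has 1 match 55 bases before the start, Il13 has 1 at 81, Il4 has 1 at 80 and Il1r2 has 1 at 86. Il4 has another annotated start, with 0 matches before it, and Il7r has 0 matches. Over windows that also take in the 50 bases after the start, a match was found in 27 of the 61 members with a promoter in the table (44.3%), and in 33.0% of 27025 genes. A match is a description of the letters and not a binding site.

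Il6 encodes a cytokine made by mast cells, macrophages, endothelium and stroma that signals through gp130. It was at -3.29, -3.21, -3.77 and -3.26 on the mutant arrays and at -1.54, -1.59, -1.32 and -0.96 on the wild type arrays. The lowest wild type value lay well above the highest mutant value. Il6 fell by 2.03 ± 0.31 on the log2 scale in mutants, 4.09-fold (SE, n = 4 each, limma's adjusted p = 0.0475). The change was -1.69 in litter 1 and -2.38 in litter 2, and with litter as a block the adjusted p was 0.0495. The call is at the edge of the threshold: the adjusted p was 0.0802 when probes named only by a chromosome interval were kept as features of their own, and 0.0519 to 0.2925 when each array in turn was left out.

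Il13 and Il4 are the ligands of type 2 immunity, which mast cells, basophils, eosinophils and T helper cells make. Il13 was at -7.10, -4.96, -5.20 and -3.98 on the mutant arrays and at -2.29, -2.22, -1.64 and -1.30 on the wild type arrays. The mutant values scattered more widely than the wild type values, and 1 of the 4 mutant arrays was well above background for Il13, so the size of its difference rests on values near background. The fitted difference was -3.45 ± 0.58 (log2, SE, n = 4 each, limma's adjusted p = 0.0884). Without mutant 4 its adjusted p was 0.0162, and over all alternatives it ran from 1.108e-05 to 0.6908. Il4 was at -4.00, -3.66, -3.77 and -2.36 on the mutant arrays and at -2.25, -1.80, -1.30 and -1.32 on the wild type arrays. Mutant 4 came close to wild type 1, and the difference was -1.78 ± 0.42 (log2, SE, n = 4 each, limma's adjusted p = 0.596).

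The genes of both cytokines are neighbours on chromosome 11, where their probes lie 18.8 kb apart (mm9, Il4 at chr11:53426076-53426135 and Il13 at chr11:53444828-53444887, both on the minus strand). Il5, the growth factor of eosinophils, has its probe 112 kb from that of Il4 and differed by -0.33 ± 0.58. Rad50, the DNA repair gene that lies between Il13 and Il5, differed by 0.34 ± 0.37, and Irf1, an interferon regulatory factor nearby, by -0.19 ± 0.38. Il3, a growth factor of mast cells and progenitors, has its probe 653 kb from that of Il4. It was at -2.92, -3.74, -2.55 and -2.03 on the mutant arrays and at -2.43, -2.06, -1.39 and -1.50 on the wild type arrays, so the groups overlapped. Its difference was -0.97 ± 0.42, and Csf2, the gene of the related cytokine GM-CSF in the same region, differed by -0.71 ± 0.57 (both log2, SE, n = 4 each, limma's adjusted p = 0.675).

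**Figure D2:**
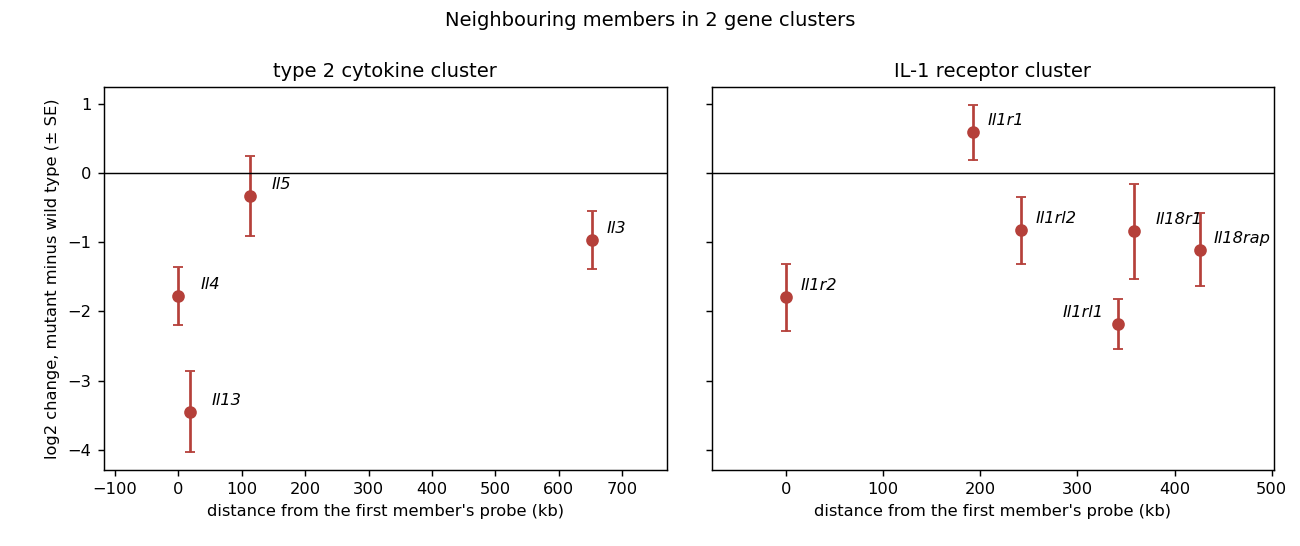
Log2 change, mutant minus wild type, ± SE (vertical axis) of members in the chromosome 11 cluster with Il4 and Il13 and the chromosome 1 cluster of IL-1 receptors, against the distance of each probe from that of the first member in kb. Il4 and Il13 are both below -1.7 while Il5 is at -0.33, and Il1r1 at 0.59 lies between neighbours that are lower.

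Il1rl1 encodes ST2, the receptor of IL-33 on mast cells, eosinophils and some lymphocytes. Its brightest probe was at -2.49, -2.16, -3.01 and -3.34 on the mutant arrays and at -0.56, -0.96, -0.62 and -0.12 on the wild type arrays. All 4 mutants were well below all 4 wild types, with a difference of -2.18 ± 0.36 (log2, SE, n = 4 each, limma's adjusted p = 0.0751). The change was -1.56 in litter 1 and -2.80 in litter 2. The other 2 probes of Il1rl1 were well above background on 1 and 2 of the 8 arrays and differed by -1.04 and -1.03. The ligand Il33 differed by 0.38 ± 0.40.

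Il1r2 encodes the decoy receptor that binds IL-1 without signalling. It was at -3.87, -3.03, -2.29 and -2.37 on the mutant arrays and at -1.61, -1.90, -0.47 and -0.41 on the wild type arrays. The mutants were lower within each litter (changes of -1.70 in litter 1 and -1.90 in litter 2), and both genotypes were higher in litter 2. The genotype difference was -1.80 ± 0.48 (log2, SE, n = 4 each), and limma's adjusted p was 0.675 without and 0.0708 with litter as a block. Il1r1, the signalling receptor of IL-1, was at -0.68, -0.44, -1.23 and -1.63 on the mutant arrays and at -0.93, -1.68, -2.29 and -1.43 on the wild type arrays. The groups overlapped, and Il1r1 differed by 0.59 ± 0.40 (limma's adjusted p = 0.675).

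These receptor genes lie in 1 cluster on chromosome 1, with the probe of Il1r2 at chr1:40180014-40180073 and that of Il1rl1 342 kb further on at chr1:40522187-40522246 (mm9, plus strand). Il18r1, the receptor of IL-18, has its probe at chr1:40537851-40537910, beside that of Il1rl1, and differed by -0.85 ± 0.69. Il18rap, the accessory chain of that receptor, was at -5.71, -6.54, -4.42 and -4.07 on the mutant arrays and at -4.20, -4.54, -3.87 and -3.69 on the wild type arrays. It was well above background on 2 of the 4 mutant arrays and on all wild type arrays, and differed by -1.11 ± 0.52. Il1rl2, the receptor of the IL-36 cytokines, differed by -0.83 ± 0.48. Limma's adjusted p was 0.675 for each of these 3 genes.

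Among the ligands of the IL-1 family, Il1a, the form of IL-1 that cells can hold at their surface, was at -3.84, -4.41, -4.33 and -1.02 on the mutant arrays and at -2.85, -0.73, -0.24 and -1.81 on the wild type arrays. Mutant 4 stood near the wild types and wild type 1 lay lowest of its group. The difference was -1.99 ± 0.79 (log2, SE, n = 4 each, limma's adjusted p = 0.675). Its values were highest on the 3 arrays with a narrow spread of signal, as were those of 18 of the 76 members (23.7%), itself included, and 25.8% of all features. Il1b, the secreted form, differed by -1.07 ± 0.69, Il18 by -1.001 ± 0.49 and the antagonist Il1rn by -0.63 ± 0.54. Il1rap, the accessory chain that the receptors of IL-1 and IL-33 share, was at -3.77, -3.85, -3.69 and -3.34 on the mutant arrays and at -4.66, -4.65, -3.50 and -3.30 on the wild type arrays. The groups overlapped, with a difference of 0.36 ± 0.39.

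Il7r encodes the alpha chain of the receptors of IL-7 and TSLP, known from lymphoid progenitors and some fetal myeloid cells. It was at -4.87, -4.92, -5.81 and -4.76 on the mutant arrays and at -4.06, -3.96, -3.65 and -3.58 on the wild type arrays. The probe was not well above background on any mutant array and was on all 4 wild type arrays, so the mutants have only a bound. For the group means under this processing it was 2.02-fold lower, and it takes no account of the spread between embryos. That bound sets the wild type mean against the probe's own signal or, where higher, the dimmest signal on that array still well above background. The fitted difference was -1.28 ± 0.34 (log2, SE, n = 4 each, limma's adjusted p = 0.675). The change was -0.89 in litter 1 and -1.67 in litter 2, and over all alternatives it ran from -1.67 to -0.43. The ligand Il7 differed by -0.44 ± 0.55.

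Il2rg, the common gamma chain, was at 0.98, 0.85, 0.37 and -0.20 on the mutant arrays and at 1.20, 0.40, -0.04 and 0.92 on the wild type arrays. The groups were interleaved, and the difference was -0.12 ± 0.40. Il4ra, which binds IL-4 and, with a partner chain, IL-13, was at -0.96, -1.02, -0.67 and -1.26 on the mutant arrays and at -0.59, -1.28, -0.83 and -0.29 on the wild type arrays, a difference of -0.23 ± 0.33. The receptor chain Il13ra1 differed by 0.14 ± 0.36 and the decoy receptor Il13ra2 by -0.60 ± 0.51. None of these 4 chains passed limma's unadjusted threshold, and the sign of Il2rg and Il4ra turned with median scaling (0.15 and 0.03), under which the median change of all features was 0.38, against 0.12 here. The group counted under the common gamma chain also took in Il13, Il13ra1 and Il13ra2, although IL-13 does not signal through that chain. In this group 13 of 16 members were lower, with a median of -0.37, beside 44.5% lower over all features.

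Il5ra encodes the private chain of the IL-5 receptor, known from eosinophils, basophils and their progenitors. It was at -1.82, -1.39, -2.17 and -0.78 on the mutant arrays and at -1.47, 0.87, 0.36 and -0.97 on the wild type arrays. Wild type 1 lay among the mutants and mutant 4 above 2 of the wild types, and the difference was -1.24 ± 0.54 (log2, SE, n = 4 each, limma's adjusted p = 0.675). Leaving out each array in turn gave -1.63 to -0.85. Il5ra was highest on the arrays with a narrow spread of signal, and with all of those arrays left out its difference was -0.57. Il3ra, the private chain for IL-3, differed by 0.20 ± 0.34.

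The beta chain that IL-3, IL-5 and GM-CSF share has no Il name and was followed in a list of 19 measured related receptors and cytokines. Csf2rb, the common beta chain, was at -1.30, -0.90, -0.26 and -0.13 on the mutant arrays and at 0.95, 0.54, 0.84 and 1.45 on the wild type arrays. The groups did not overlap, and the difference was -1.59 ± 0.37 (log2, SE, n = 4 each, limma's adjusted p = 0.534). Csf2rb2, its near-identical copy in the mouse that pairs with the IL-3 receptor, differed by -1.35 ± 0.36 (adjusted p = 0.675), also without overlap. Signal from one of these copies may reach the probe of the other. Of the 19 genes 4 were lower and 0 higher at limma's unadjusted p under 0.05, beside 3.18% and 0.45% of all features. Ebi3, a subunit of IL-27, was among the 4, and 0 of the 19 passed the adjusted threshold. The list's median change was -0.14, beside 0.12 over all features.

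In the gp130 family, Il6st, gp130 itself, was at 2.31, 2.42, 2.53 and 1.78 on the mutant arrays and at 2.43, 1.45, 1.56 and 2.58 on the wild type arrays. The groups overlapped with a difference of 0.26 ± 0.37, whose sign turned with quantile normalization (-0.04). Il6ra, the private chain for IL-6, differed by -0.75 ± 0.43, and Il11ra1, the receptor of IL-11, by 0.50 ± 0.39. Il11ra1 has near-identical copies in the mouse genome, so its signal may be shared. The STAT-activating ligands Il27, Il11 and Il31 differed by 0.30 ± 0.31, 0.22 ± 0.65 and -1.02 ± 0.51. The family as counted here takes in Il31 and Il31ra, although IL-31 does not signal through gp130. Of its 9 members 5 were lower, with a median of -0.34, beside 44.5% lower over all features. Il6 alone of the 9 passed the adjusted threshold.

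Il17rd, a receptor of the IL-17 family also known as an inhibitor of FGF signalling, had the largest rise among the members. It was at 2.44, 2.28, 2.11 and 1.41 on the mutant arrays and at 1.96, 0.86, 0.98 and 1.50 on the wild type arrays. Mutant 4 lay below wild types 1 and 4, and the difference was 0.73 ± 0.37 (log2, SE, n = 4 each, limma's adjusted p = 0.675). Il25, which drives type 2 responses, was at -0.28, -0.29, -1.49 and 1.28 on the mutant arrays and at -0.28, 1.88, 1.86 and 0.16 on the wild type arrays, a difference of -1.10 ± 0.65. Its 3 highest values were on the 3 arrays with a narrow spread. Il17ra, the chain that most receptors of this family share, was at -3.77, -5.16, -3.28 and -4.79 on the mutant arrays and at -3.48, -4.42, -3.62 and -2.96 on the wild type arrays, a difference of -0.63 ± 0.48. None of the 10 members of the family passed limma's unadjusted threshold.

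In the family of IL-10, IL-20, IL-22 and interferon lambda 7 of 12 members were lower, beside 44.5% of all features. Of the 12 members 0 passed limma's unadjusted threshold. Their changes ran from -0.91 (Il20ra, a receptor of IL-19, IL-20 and IL-24) to 0.48 (Il20, a ligand of epithelium). Il10rb is the chain that the receptors of IL-10, IL-22 and interferon lambda share. It was at 0.55, 0.52, -0.06 and -0.55 on the mutant arrays and at 0.50, -0.25, -0.58 and -0.32 on the wild type arrays. Its difference was 0.28 ± 0.38. In the IL-12 and IL-23 family the receptor chain Il12rb2 was at -2.03, -1.84, -2.36 and -2.32 on the mutant arrays and at -2.11, -2.42, -3.47 and -2.63 on the wild type arrays. The brighter probe of Il12rb2 differed by 0.52 and the dimmer one by -0.52. Of 14 members with more than 1 measured probe, 6 had probes of opposite sign.

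Over all members 55 of 76 were lower at any size (72.4%), beside 44.5% of all features, and the median change was -0.34, beside 0.12 over all features. The median was -0.40 over the 35 ligands and antagonists and -0.32 over the 40 receptor chains. By family it was lowest in the IL-1 and IL-18 family, at -0.79 over 18 members. The shift depends on the processing. The members' median was -0.08 with median scaling, where 42 of 76 were lower, and -0.07 with the authors' deposited values, where 38 of 71 were lower, while the median of all features was 0.38 and 0.46 there. With normexp background correction 46 of 76 were lower and the median was -0.15. Relative to all features the members' median was -0.46 here and with median scaling, and -0.52 with the authors' deposited values. It was -0.29 with normexp, -0.21 with quantile normalization, -0.15 with normexp and quantile normalization and -0.35 without the 3 arrays of narrow spread. Fewer members than features were well above background on all 8 arrays (68.4% against 83.9%), and the part of dim signal in this shift was not tested.

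**Figure D3:**
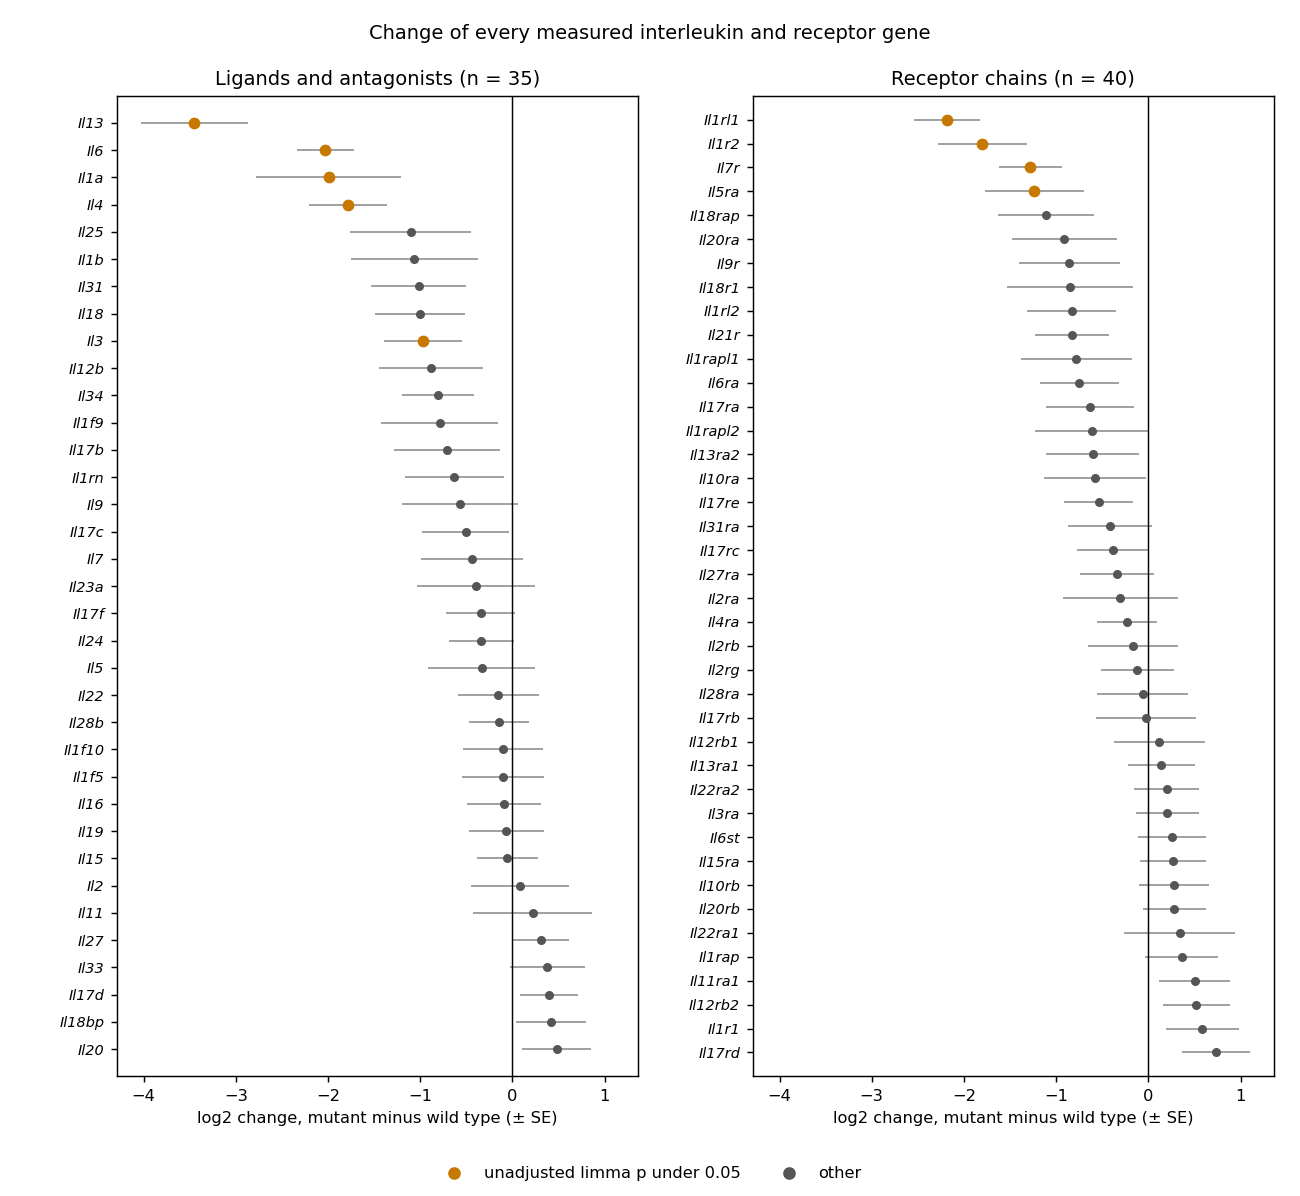
Log2 change, mutant minus wild type, ± SE (horizontal axis) for 35 ligands and antagonists and 40 receptor chains, ordered by change, with members at limma's unadjusted p under 0.05 in orange. All 9 orange points lie below 0, and the largest rise, in Il17rd, is 0.73.

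The JAK, STAT and SOCS genes that carry most interleukin signals showed 0 of 23 past limma's unadjusted threshold. At any size 18 were higher and 5 lower, with a median of 0.28. Over all features 44.5% were lower at any size and the median was 0.12. At limma's unadjusted threshold 3.18% of all features were lower and 0.45% higher. The brightest of the JAK, STAT and SOCS genes were Socs3, a feedback inhibitor (0.30 ± 0.37), and Ptpn11, a phosphatase (0.44 ± 0.36). Of 26 genes of IL-1 receptor signalling, 0 passed the adjusted threshold and the NF-kappaB subunit Rel was lower at limma's unadjusted p (-1.37 ± 0.47), with a list median of 0.19. The brightest of that list were Nfkbia, the inhibitor of NF-kappaB (0.19 ± 0.33), and its subunit gene Rela (0.30 ± 0.35). Of 4 measured genes in the IL-17 signalling list 0 passed the adjusted threshold, and the RNase gene Zc3h12a was lower at limma's unadjusted p (-1.18 ± 0.51). The brightest were Nfkbiz, a regulator of NF-kappaB targets (-0.38 ± 0.34), and Traf3ip3 (-0.76 ± 0.43). Rel and Zc3h12a were singled out after their values were seen.

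Markers of mast cells, granulocytes and platelets were lower in the same mutant samples. Beside the counts below, 44.5% of all features were lower at any size and 0.0925% were lower at the adjusted threshold. Of 11 mast cell and basophil markers 10 were lower and 3 passed the adjusted threshold, namely Cpa3 (-4.93 ± 0.73), Hdc (-3.54 ± 0.41) and Gzmb (-2.37 ± 0.36). Their mean log2 level ran from -4.15 to -2.90 in mutants and from -2.51 to -1.61 in wild types. All 6 eosinophil markers were lower, with Ear2 and Prg2 past the adjusted threshold and a mean level of -4.50 to -2.63 in mutants and -1.49 to -0.41 in wild types. The 8 neutrophil markers had mean levels of -3.14 to -2.11 in mutants and -0.99 to -0.10 in wild types, with 6 of the 8 lower, 2 higher and 3 past the adjusted threshold. The 8 platelet and megakaryocyte markers, 6 of them past it, had -0.97 to 0.20 in mutants and 1.71 to 2.84 in wild types. Each of these markers was well above background on at least 1 mutant array, but some on 1 alone, among them Ear2, Fcer1a and Mrgprb1. Ear2 met the filter through its 4 wild type arrays alone, so the size of its difference rests on values near background. The part of these cells in the differences of Il6, Il13, Il4, Il1rl1, Il1r2, Il7r, Il5ra and Csf2rb was not tested.

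For other cell types the groups overlapped. The 8 macrophage and monocyte markers averaged -0.61 to 1.28 in mutants and -0.26 to 1.51 in wild types, and the 11 lymphoid markers -1.34 to -0.87 in mutants and -0.92 to -0.89 in wild types. The 9 endothelial markers averaged 4.03 to 5.32 in mutants and 3.73 to 5.46 in wild types. No unselected cells were measured, so these levels cannot test the CD31 selection. Pecam1, the gene of CD31, differed by 0.21 ± 0.40. Mesenchymal and erythroid markers were also present, at 3.17 to 4.22 and 3.32 to 5.28 in mutants and 2.64 to 4.33 and 2.53 to 5.54 in wild types, so other cells were in the samples.

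**Figure D4:**
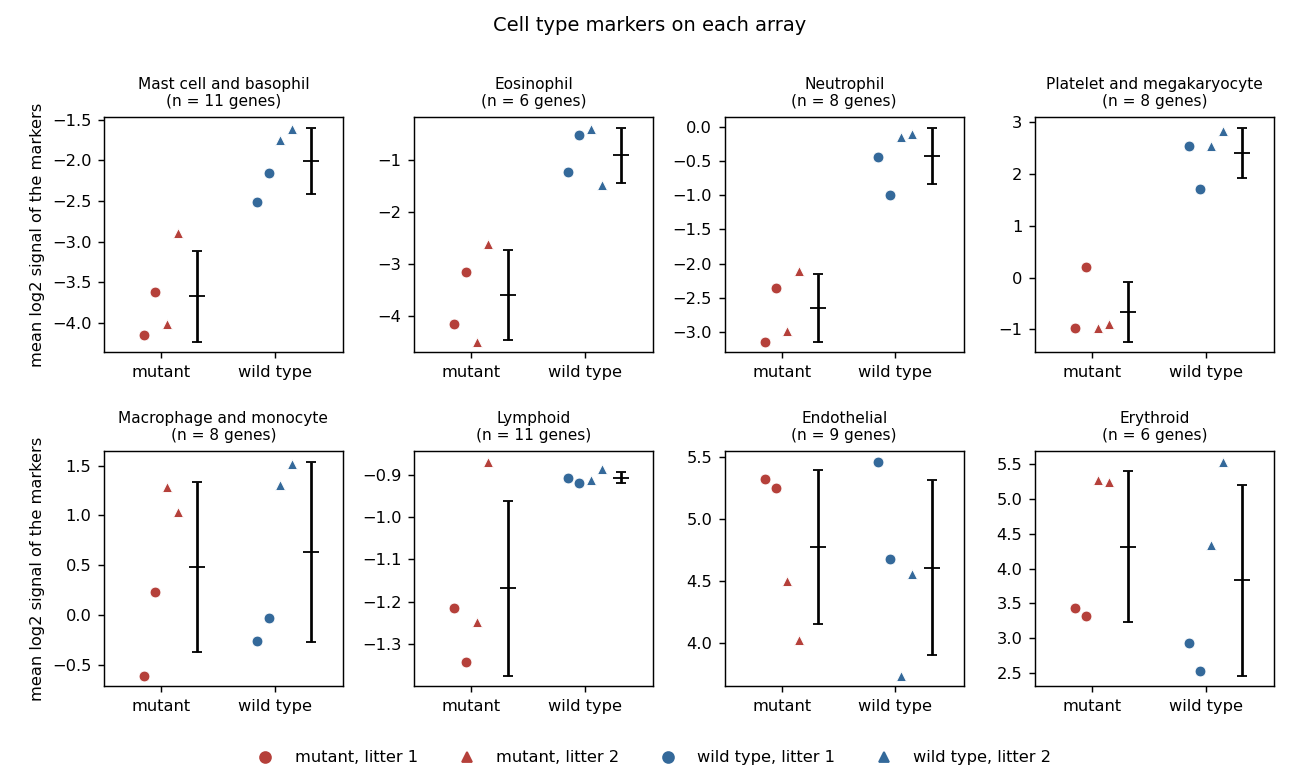
Mean log2 signal, relative to the array's 75th percentile, of 8 lists of cell type markers on each mutant and wild type array, with the group mean ± SD beside the points. Mast cell, eosinophil, neutrophil and platelet lists are lower on all 4 mutant arrays, and the macrophage, endothelial and erythroid lists overlap.

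Several members differed between the litters. At limma's adjusted p under 0.05, with genotype in the model, 5 of 76 members (6.58%) were higher in litter 2 and 0 lower, beside 3.21% higher and 1.16% lower over all features. They are Il1b (1.95 ± 0.33), Il11, a gp130 ligand of stroma (1.74 ± 0.36), Il22ra1, the IL-22 receptor (1.70 ± 0.27), Il10ra, the IL-10 receptor (1.50 ± 0.28), and Il1r2 (1.22 ± 0.27). At limma's unadjusted p under 0.05, 19 members were higher in litter 2 (25%) and 6 lower (7.89%), beside 15.2% and 10.9% of all features. Il1b was at -3.92 and -2.74 in the mutants and -2.59 and -1.88 in the wild types of litter 1, and at -1.56 and -1.13 in the mutants and -0.23 and -0.38 in the wild types of litter 2. Both genotypes were higher in litter 2. Cell type markers differed between litters as well. At the adjusted threshold 6 of 8 macrophage and monocyte markers and 3 of 6 erythroid markers were higher in litter 2 (medians of 1.53 and 1.86), and 3 of 9 endothelial markers were lower (median of -0.97). Their part in these differences was not tested. Litter, slide and scan cannot be told apart here.

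The genotype effect itself was compared between litters with an interaction term. At the adjusted threshold 0 of 76 members differed (lowest adjusted p of 1, limma), beside 0% of all features, and 2 did at limma's unadjusted p under 0.05 (2.63%), beside 1.01%. Their values are given as a description. Il2ra, the alpha chain of the IL-2 receptor, changed by -1.37 in litter 1 and 0.76 in litter 2, and Il28ra by 0.88 in litter 1 and -1.004 in litter 2. The probes of both were well above background on only some arrays. Il13, Il6, Il1rl1, Il4, Il1r2 and Il7r were lower in mutants in both litters.

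**Figure D5:**
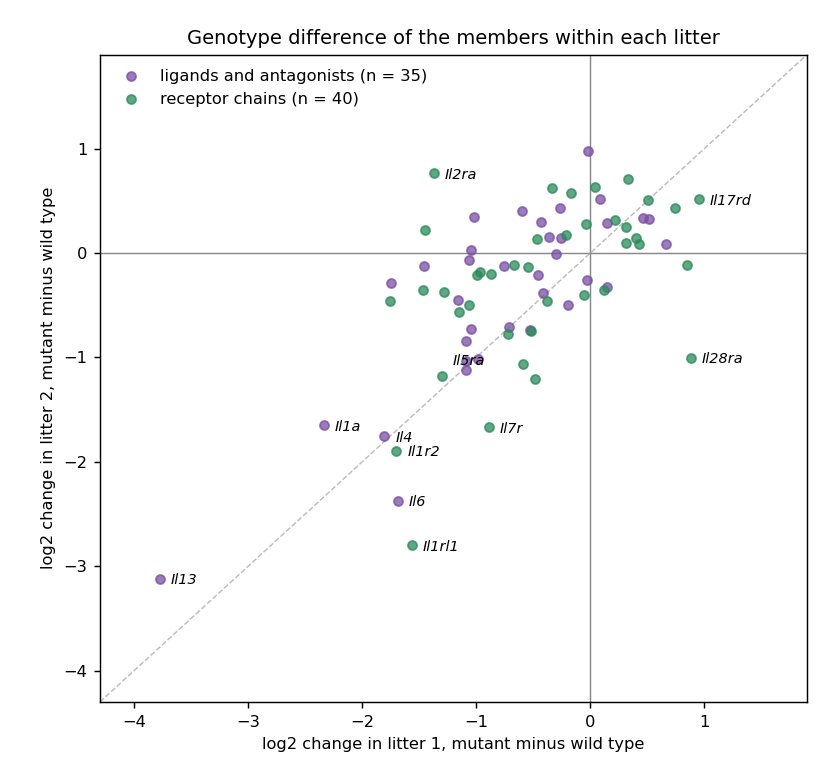
Log2 change, mutant minus wild type, in litter 1 (horizontal axis) and litter 2 (vertical axis) for 75 members, with 2 mutant and 2 wild type arrays in each litter and the dashed line marking equal change. Il13, Il6, Il1rl1, Il4, Il1r2 and Il1a lie in the lower left, and Il2ra and Il28ra have opposite signs in the litters.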

How the data were processed

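For each spot the deposited scanner files hold a linear intensity, background-subtracted within the array by Agilent Feature Extraction 10.7.3.1 with the mm9 annotation, per the file headers. The authors' deposited table holds log2 values and a p-value for every probe. The submitters' processing notes name limma for it (version not given in the sources used here), and its log2 values served as an alternative.

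Control spots and outlier spots (130 to 521 of the 59305 non-control spots per array) were left out. The processed intensity was put on the log2 scale and the 75th percentile of the array was subtracted. Repeated spots were averaged, a probe had to be well above background on 4 or more arrays, and the brightest such probe was used for a gene name. No values of the members were missing. Genotype was the only term of the limma fit (version 3.58.1, R 4.3.3, moderated two-sided tests with lmFit and eBayes), and p-values were adjusted by Benjamini and Hochberg's method over 31343 features at a threshold of 0.05. Litter was tested with genotype in the model. The number of arrays limits the precision, and p-values rest on the spread between 4 embryos a group. Simulated data with known changes were used to test the fit.

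Members and lists were chosen with earlier results of these data known. Named in full were Il6, Il1rl1, Il5ra and Il7r, members past the adjusted threshold or past the unadjusted one without overlap, shared chains, and the 3 largest falls and rises of the rest. Same-litter arrays of opposite genotype correlated on average at r = 0.27 in their deviations across features (-0.21 to 0.78). For arrays of different litters the average was -0.27 (-0.84 to 0.42), so the ranges overlapped. Deviations were taken from each genotype's mean, which ties these averages to each other. The pairing by litter comes from the labels. The alternatives were other scaling, background correction, filters, probe summaries, the authors' values, blocks and arrays left out. Coordinates of probes are on mm9 and those of promoters on GRCm38.p6. The authors' own p-values were not used. 1 gene of the related receptor list is counted but not reported here.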

Additional observations from a re-analysis of the deposited data

Results flagged for a closer look

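In Il6, Il7r and Il1a, 1 mutant array stood far from the other 3, by the gap to its nearest neighbour over the group's range. That ratio was 0.859 for Il6, where mutant 3 was lowest, 0.848 for Il7r, where mutant 3 was also lowest, and 0.833 for Il1a, where mutant 4 was highest, each above Dixon's 95% critical value for 4 arrays. Such gaps were sought in 44 groups of arrays and 3 were found, and chance gives about 1 in 20. The Il7r probe was not well above background on any mutant array, so the gap among its mutant values carries no measurement.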

How the results depend on the processing

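The signs of Il6, Il13, Il4, Il1rl1, Il1r2, Il7r and Il5ra were the same under every alternative run, but calls at the adjusted threshold were few and unstable. Of 20 tested alternatives Il6 passed in 3, Il1rl1 in 2, and of 19 Il13 passed in 4. The count of features past the adjusted threshold was 18 with median scaling, 4 with quantile normalization, 5 with normexp and quantile normalization, 19 with all probes, 16 with region probes as features of their own, 44 with the authors' deposited values and 0 without wild type 2, wild type 3 and mutant 4. The count of members was 2 with normexp and with a filter on all 8 arrays. It was 0 with quantile normalization, with normexp and quantile normalization, with all probes, with region probes of their own and without the 3 arrays. The alternative with region probes of their own was chosen after seeing the data. With litter as a replicate block 25 features and 1 member passed, and it changed no other call of a named member. The sample numbers did not pair the arrays (r = 0.65, -0.07, -0.11 and -0.21 for numbers 1 to 4), not every mutant matched its own number best, and that block gave 0 features and 0 members. Leaving out each array in turn gave 0 to 39 features, 0 without mutant 3, wild type 1, wild type 3 or wild type 4, and 0 to 1 members, the 1 being Il13 without mutant 4. It gave 6 to 25 members at the unadjusted p, 25 without mutant 4 and 15 without wild type 1. The median of the receptor chains was 0.0404 with the authors' deposited values, whose median over all features was 0.46. Signs turned for Il2rg (0.15 with median scaling and with the authors' deposited values, -0.34 to 0.12 with an array left out, above 0 without wild type 1 or mutant 4), Il6st (-0.0386 with quantile normalization, -0.0201 with normexp and quantile normalization, -0.0846 without the 3 arrays), Il4ra (0.0336 with median scaling, 0.0404 with the authors' deposited values) and Il12rb2 (-6.708e-05 for the mean of its probes). With 1 litter alone the sign also turned for Il1rap (-0.12 in litter 2, against 0.84 in litter 1) and Il2rg (0.12 in litter 1, against -0.36 in litter 2). The litter count of members was 1 with median scaling, 2 with quantile normalization and with normexp, 3 with normexp and quantile normalization and with the authors' deposited values, and 0 to 9 with an array left out, 9 without wild type 2. The cause of these changes was not tested. Signal over background limits what Il7r and Il13 show in mutants.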
